A study of Fagopyrum tataricum with 9 samples.

Results

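The late step of seed ripening in Tartary buckwheat (Fagopyrum tataricum) was described by setting seeds at initial maturity against seeds at discoloration, over every gene with a count in the 6 libraries concerned. These were 28788 of the 33931 genes in the deposited count table. The initial maturity group held 3 libraries of seeds taken 25 days post anthesis (dpa), and the discoloration group 3 libraries of seeds taken 19 dpa. A green fruit group of 3 libraries, taken 13 dpa, entered the model and is quoted where the earlier level of a gene is of interest. All groups were seeds of the variety MIQIAO 1, described in the study's title as easily dehulled, from field-grown plants, with no treatment and no introduced allele named. Days are matched to stage names here by developmental order, since the labels list them apart. Per the labels, an individual gave seeds of every stage and 3 plants gave the replicates. They name neither the plant behind each library nor whether hulls were removed. In such bulk tissue, fewer cells of a type and less RNA per cell cannot be told apart.

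As a seed matures, embryo growth ends, reserves of protein, oil and starch are laid down, and the seed then loses water. Late embryogenesis abundant (LEA) proteins, small heat shock proteins and certain sugars are known to protect its cells while they dry. Abscisic acid promotes maturation and holds back germination, gibberellin promotes germination, and green tissue loses its chlorophyll. The buckwheat grain is a dry fruit whose hull, the fruit wall, hardens by lignification, and Tartary buckwheat is known for its flavonoids. A dry seed also stores messenger RNA and ribosomes that are used when it germinates.

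Counts per library ranged from 22153606 to 24945512 at initial maturity and from 23755258 to 25453985 at discoloration. At initial maturity 25398 to 25561 genes had a count, against 26161 to 26725 at discoloration. The 20 most counted genes took 41.8% to 46.9% of the counts at initial maturity and 39.6% to 42.9% at discoloration. Within each stage a pair of libraries was closely similar and the remaining library stood apart. At initial maturity, libraries 1 and 3 differed by 3.54 times the sampling variance, and library 2 differed from them by 106 and 111 times. At discoloration, libraries 2 and 3 differed by 1.98 times, and library 1 differed from them by 42.9 and 42.5 times. In green fruit, libraries 2 and 3 differed by 2.56 times, and library 1 differed from them by 255 and 232 times, the largest differences. The labels do not tie a library to a plant, so p-values measure only the spread between these libraries, which may in part be technical. Calls are therefore also given with the similar libraries of each stage merged, which leaves 2 libraries a stage and far fewer calls, 482 genes higher and 1181 lower.

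At initial maturity 3776 of 23631 genes tested were higher than at discoloration (16.0%) and 4832 were lower (20.4%), so 8608 changed (36.4%; edgeR quasi-likelihood test, Benjamini-Hochberg adjusted p under 0.05). The median log2 fold change was 1.04 among genes that rose and -1.67 among genes that fell. Losses were thus larger than gains: over 8-fold changes were counted in 214 genes that rose and 966 that fell, and over 32-fold changes in 30 and 213. The shares of gains and losses differed with expression level. Between 100 and 1000 CPM (counts of a gene scaled to a common library total, with TMM factors that level the bulk of genes), 21.9% of genes rose and 9.44% fell, whereas between 1 and 10 CPM 14.0% rose and 25.8% fell. Above 1000 CPM 10.5% of 86 genes rose and 2.33% fell. On the 8 chromosomes 15% to 17.5% of genes were higher and 19% to 21.6% lower. The balance of gains and losses depended on the scaling. With library totals alone 1886 genes were higher and 7193 lower, and the median log2 change of all genes was then -0.37 rather than -0.02. The changes given here are relative to the bulk of genes. Calls that held in each fit without 1 of the 6 libraries, with ranges that did not overlap, numbered 1787 higher (7.56%) and 3027 lower (12.8%), and named examples are taken from these unless said otherwise. Of the 3776 and 4832 calls, 478 and 1181 held with the similar libraries merged, and 2504 and 3434 held without initial maturity library 2 and discoloration library 1. Below, the libraries that stood apart are that pair only, and green fruit library 1 stayed in the fit without them. The counts in functional lists given below move with these choices. Merging the similar libraries moved the gains of 58 of 63 lists and the losses of 59 by over 1.5 times, and library totals alone those of 38 and 19. Leaving out discoloration library 2 or 3 moved the gains of 39 or 42 lists and the losses of 22 or 23, and any other of the 6 libraries moved gains in 11 to 17 lists and losses in 4 to 11. Counts that moved by over 1.5 times and by at least 3 genes under library totals or without the libraries that stood apart, or that fell so far without 1 of the 6 libraries, are given with each account.

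**Figure D1:**
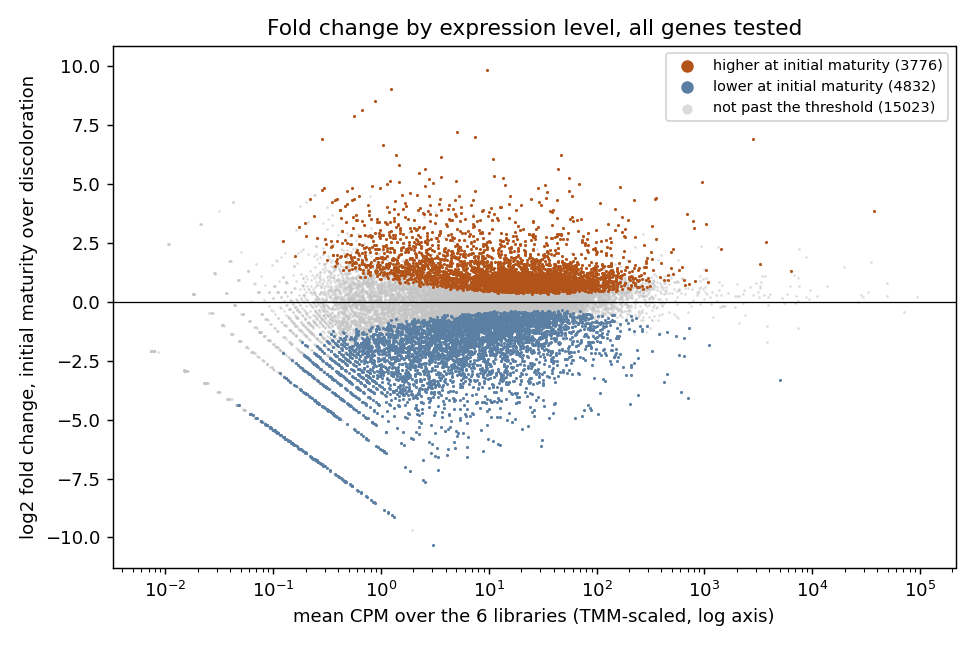
Log2 fold change (initial maturity over discoloration) against the mean CPM of the 6 libraries on a log axis, 1 point for each of 23631 tested genes. Orange points are the 3776 genes that rose and blue points the 4832 that fell. More genes lie past an 8-fold loss than past an 8-fold gain, 966 against 214, and blue points prevail at low CPM.

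The 8 largest gains that passed every naming criterion were in genes matched to 2 chitinases, 2 cytochrome P450 enzymes, a sesquiterpene synthase, a polyol transporter, an ACT domain protein and a transcription factor. The 8 largest losses were in genes matched to a peroxidase, 2 enzymes of very long chain fatty acid elongation, a CASP-like protein, a coumarin enzyme, a receptor kinase, a glycosyltransferase and a cytochrome P450. Names are those of the best Swiss-Prot match in the deposited descriptions, and roles are those of the matched proteins in their own species. Beyond the genes that a fixed rule picked, examples were chosen after their values were seen. The gene matched to an endochitinase (FtPinG0008881000.01, chromosome 6, 45187627 to 45187921, minus strand) reached 3416, 9852 and 3373 CPM at initial maturity, against 35.3, 47 and 56.9 CPM at discoloration. An endochitinase cuts the chitin of fungal walls, but this gene model is short, and whether it encodes the whole enzyme was not tested. Library 2 was the highest of the initial maturity group and the groups were far apart (log2 fold change 6.90 ± 1.35 SE, adjusted p = 0.00462). In green fruit the same gene averaged 0.58 CPM. ACR2 (FtPinG0008166000.01), a protein with amino acid-binding ACT domains, had 11.3, 41.6 and 11.7 CPM at initial maturity, against 0.561, 0.133 and 0.28 CPM at discoloration (log2 fold change 6.06 ± 0.74 SE, adjusted p = 6.3e-04). The sesquiterpene synthase gene FtPinG0004112800.01, which would make a volatile terpene, stood at 81.4, 95.5 and 79.7 CPM at initial maturity, against 3.88, 0.711 and 0.561 CPM at discoloration, with discoloration library 1 above the other 2 and still well below initial maturity (log2 fold change 5.66 ± 1.09 SE, adjusted p = 0.00441). The sugar alcohol carrier polyol transporter 6 (FtPinG0003619700.01) showed the same picture, at 65.7, 192 and 69.9 CPM at initial maturity, against 7.96, 0.444 and 0.28 CPM at discoloration (log2 fold change 5.26 ± 1.13 SE, adjusted p = 0.00713). ERF098 (FtPinG0009155900.01), a transcription factor of the ethylene response family, had 50.4 to 92.3 CPM at initial maturity, against 1.89 to 2.38 CPM at discoloration (log2 fold change 4.97 ± 0.31 SE, adjusted p = 1.8e-04). Chitinase 4 (FtPinG0004181100.01) had 19.2 to 32.9 CPM at initial maturity, against 0.816 to 0.977 CPM at discoloration (log2 fold change 4.95 ± 0.38 SE, adjusted p = 1.3e-04). The cytochrome P450 enzymes CYP72A219 (FtPinG0004787500.01) and psoralen synthase (FtPinG0003413600.01) completed the 8, with log2 fold changes of 5.28 and 5.02. With the similar libraries merged, the sesquiterpene synthase and polyol transporter 6 no longer passed (adjusted p = 0.0603 to 0.0741) and the other 6 called genes named here did.

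At the other end, cationic peroxidase 1 (FtPinG0003135700.01), of a family that couples phenols in walls, had 0.0637, 1.71 and 0.837 CPM at initial maturity, against 24.3, 79.2 and 76.2 CPM at discoloration (log2 fold change -6.10 ± 0.89 SE, adjusted p = 0.00129). Initial maturity library 1 was almost at 0 and every discoloration library was above 20 CPM. A pair of genes matched to enzymes of very long chain fatty acid elongation fell as far. 3-ketoacyl-CoA synthase 12 (FtPinG0009270300.01) had 0.0637 to 0.569 CPM at initial maturity, against 15.8 to 29.8 CPM at discoloration (log2 fold change -6.09 ± 0.79 SE, adjusted p = 7.6e-04). Very-long-chain 3-oxoacyl-CoA reductase (FtPinG0002006900.01), whose best match is a protein of the fungus Coccidioides immitis, had 0.255 to 0.505 CPM at initial maturity, against 16.9 to 24.3 CPM at discoloration (log2 fold change -5.89 ± 0.39 SE, adjusted p = 7.9e-05). CASP-like protein 1E2 (FtPinG0006059100.01), of a family named for proteins of the root's Casparian strip, had 0.382 to 1.55 CPM at initial maturity, against 30.7 to 80.5 CPM at discoloration (log2 fold change -5.84 ± 0.50 SE, adjusted p = 1.9e-04). Feruloyl CoA ortho-hydroxylase 1 (FtPinG0003678400.01), which in Arabidopsis makes the coumarin scopoletin, had 0.191 to 1.96 CPM at initial maturity, against 24.6 to 47.6 CPM at discoloration (log2 fold change -5.39 ± 0.82 SE, adjusted p = 0.00151). Phytosulfokine receptor 1 (FtPinG0004135900.01), a receptor kinase for a growth-promoting peptide, had 0.126 to 1.59 CPM at initial maturity, against 21.3 to 37.6 CPM at discoloration (log2 fold change -5.09 ± 0.63 SE, adjusted p = 6.4e-04). The glycosyltransferase 87A2 (FtPinG0008426200.01) and the cytochrome P450 71A1 (FtPinG0005618000.01) had log2 fold changes of -5.26 and -4.97. The naming criteria required that the highest initial maturity library of each of these 8 genes be below its lowest discoloration library. Merging the similar libraries ended no call of the genes named here.

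**Figure D2:**
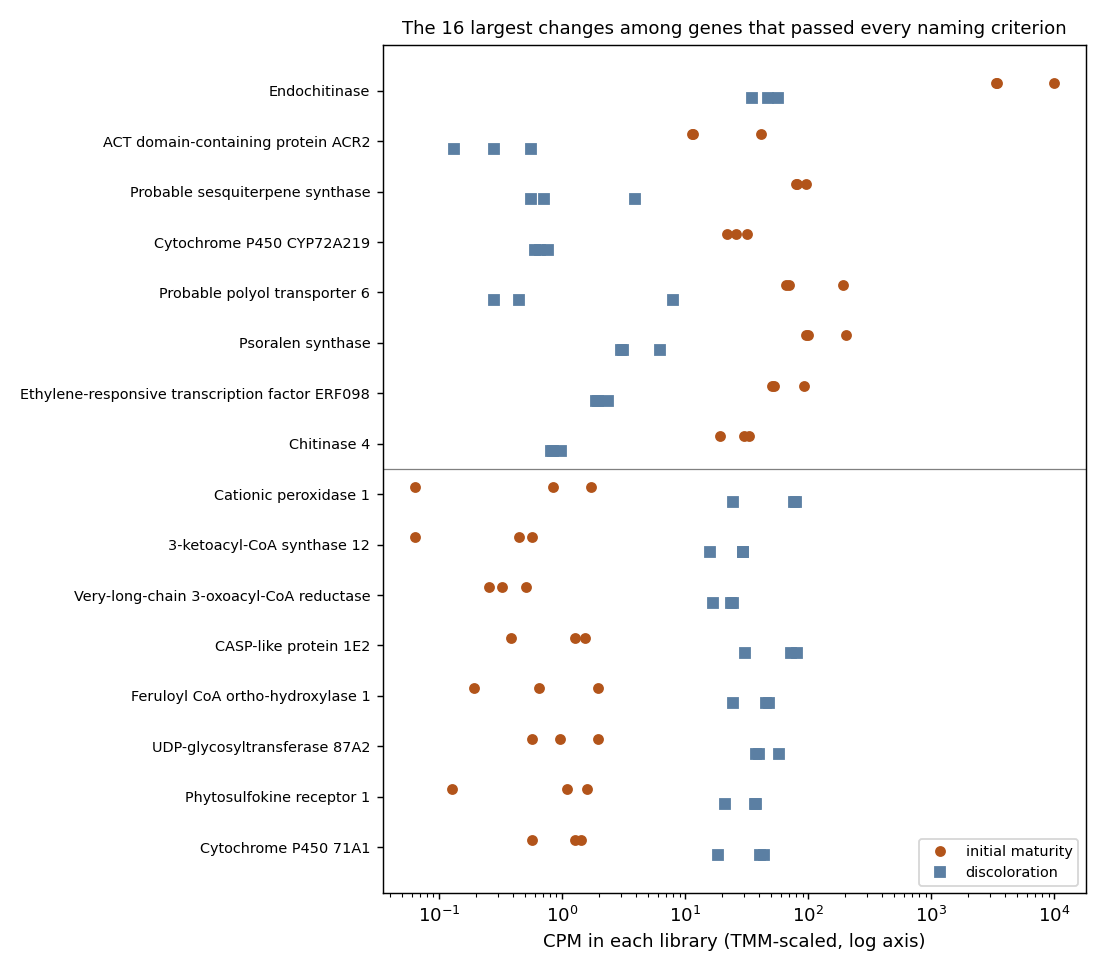
CPM in each library, on a log axis, of the 8 genes with the largest gains (above the line) and the 8 with the largest losses (below it) among genes that passed every naming criterion. Circles are the 3 initial maturity libraries and squares the 3 discoloration libraries. The naming criteria required that the ranges of the stages do not overlap.

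The RNA of the maturing seed was dominated by few genes, and the storage proteins among them did not pass the test in this step. The most counted gene at initial maturity was 13S globulin seed storage protein 2 (FtPinG0000917200.01), the main buckwheat reserve protein, at 114564, 67028 and 120120 CPM at initial maturity, against 92611, 85982 and 84937 CPM at discoloration (log2 fold change 0.20 ± 0.91 SE, adjusted p = 0.884). Initial maturity library 2 was the lowest of all 6, and the ranges overlapped. The next was antimicrobial peptide 1 (FtPinG0004979700.01), matched to a small defence peptide known from common buckwheat seeds, at 54716, 101983 and 52655 CPM at initial maturity, against 7130, 3547 and 3618 CPM at discoloration (log2 fold change 3.87 ± 1.23 SE, adjusted p = 0.0352). All initial maturity libraries were far above all discoloration libraries. Its call was nonetheless lost without any 1 of the 6 libraries (adjusted p = 0.0595 to 0.129), without both libraries that stood apart (0.121) and with the similar libraries merged (0.144). Per length of gene, 13S globulin 2 averaged 39407 ± 13070 FPKM at initial maturity and 43343 ± 475 FPKM at discoloration, and antimicrobial peptide 1 averaged 111509 ± 37588 and 9735 ± 3759 FPKM (authors' FPKM, SD, n = 3 each). A further antimicrobial peptide 1 gene (FtPinG0004981100.01) had 43423, 75171 and 41268 CPM at initial maturity, against 18114, 15200 and 15954 CPM at discoloration, and antimicrobial peptide 2 (FtPinG0004980000.01) had 20020, 46893 and 21017 CPM at initial maturity, against 11577, 9705 and 9943 CPM at discoloration. Neither passed (adjusted p = 0.336 and 0.401), although their ranges did not overlap. The peptide genes and the endochitinase gene FtPinG0008881000.01 all lie on chromosome 6, in the order FtPinG0008881000.01, FtPinG0004979700.01, FtPinG0004980000.01, FtPinG0004981100.01. How reads shared by near-identical copies were counted is not stated, so the split of counts between such genes is uncertain. The other 6 of the 10 most counted genes were 5 more storage globulins, such as vicilin-like antimicrobial peptides 2-1 (FtPinG0001724500.01, log2 fold change 0.81) and 11S globulin 2 (FtPinG0009373700.01, -0.41), and an unmatched gene (FtPinG0002626600.01, 0.24), with no call among them.

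By list, storage protein genes took 26.4%, 15.6% and 26.9% of the counts in initial maturity libraries 1 to 3 and 26.4%, 25.2% and 25% in discoloration libraries 1 to 3. Antimicrobial and pathogenesis-related genes took 10.3%, 17.5% and 9.87% at initial maturity and 4.54%, 4.61% and 4.76% at discoloration. Initial maturity library 2, which stood apart, was low in storage and high in defence transcripts, while the defence share was higher in all 3 initial maturity libraries than in any discoloration library. Oil body genes took 3.43%, 3.82% and 3.52% at initial maturity and 3.5%, 3.34% and 3.36% at discoloration. LEA genes took 1.85%, 2.08% and 1.89% at initial maturity and 1.74%, 1.65% and 1.65% at discoloration, after at most 0.47% in green fruit. An exact permutation test of 3 against 3 libraries cannot give a p below 0.1, so these shares are given without a test.

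**Figure D3:**
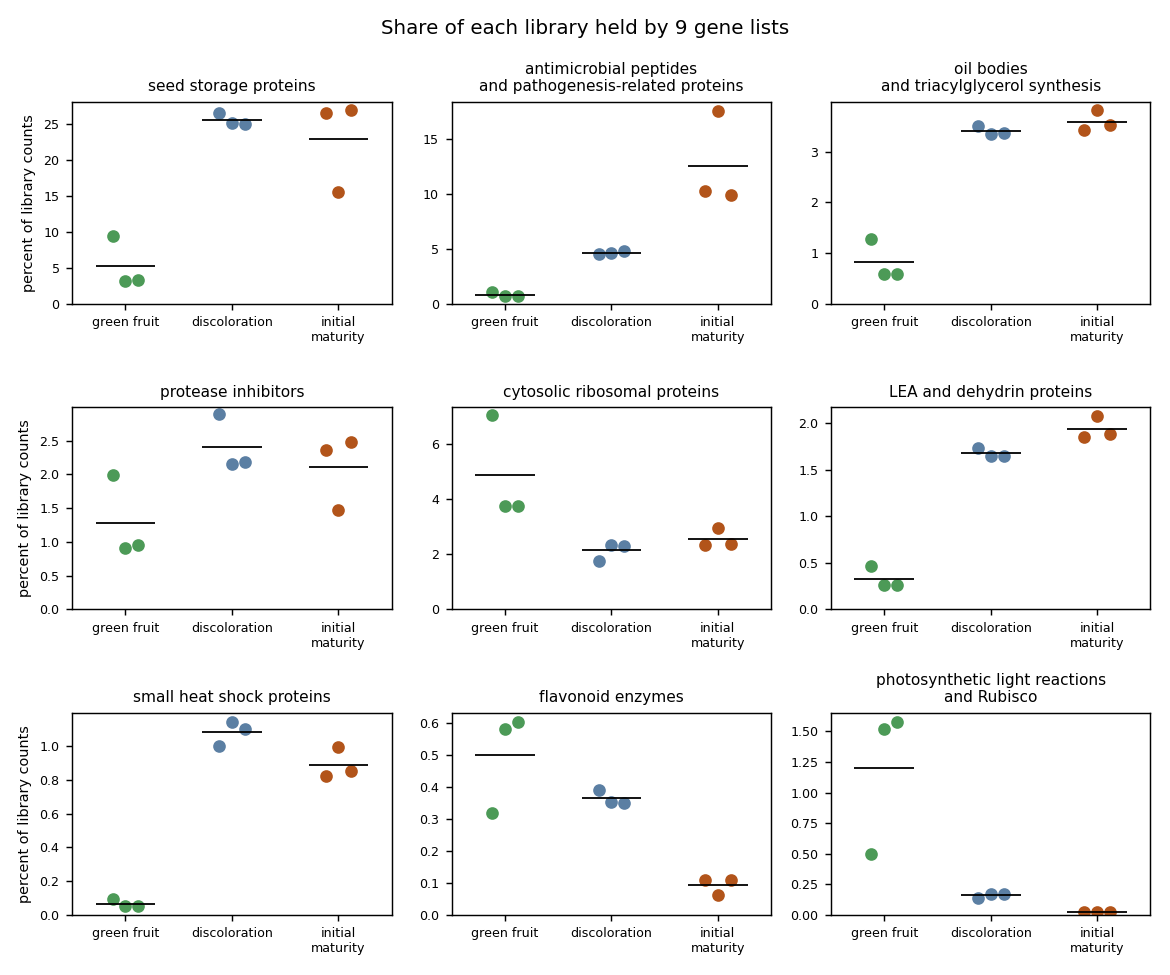
Percent of each library's counts held by 9 gene lists at green fruit, discoloration and initial maturity, 1 point per library with the mean as a line (n = 3 each). The share of antimicrobial and pathogenesis-related genes is 9.87% to 17.5% at initial maturity and 4.54% to 4.76% at discoloration, and those of flavonoid and photosynthesis genes are lower at initial maturity in every library.

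Some genes had no count at initial maturity or none at discoloration. NADP-dependent malic enzyme (FtPinG0009131200.01), which makes pyruvate and reducing power from malate, had 2.99, 2.65 and 1.8 CPM at initial maturity and no count in any discoloration or green fruit library, at least 17.5-fold higher against a floor of 3 counts per library (adjusted p = 0.0014). Cytochrome P450 82C4 (FtPinG0002490600.01), an enzyme of coumarin formation in Arabidopsis, had no count at initial maturity and 1.68, 2.98 and 3.27 CPM at discoloration, after 1.73, 0.959 and 0.715 CPM in green fruit, and was at least 13.8-fold lower than at discoloration (adjusted p = 8.5e-04). A second 3-ketoacyl-CoA synthase 12 gene (FtPinG0001389600.01) was likewise at 0 at initial maturity and at 1.68, 3.29 and 2.62 CPM at discoloration, after a higher level of 4.4, 3.67 and 4.36 CPM in green fruit (at least 13.2-fold lower, adjusted p = 3.5e-04), as was the unmatched gene FtPinG0007738200.01, with 1.68, 8.13 and 8.27 CPM at discoloration and 1.29, 0.816 and 1.33 CPM in green fruit (at least 31.5-fold lower, adjusted p = 0.00138). RNA polymerase subunit 9A (FtPinG0006746800.01) was at 0 in every initial maturity library but also in discoloration library 1, with 0, 6.0 and 5.61 CPM at discoloration and 0, 1.76 and 1.71 CPM in green fruit, and did not pass (adjusted p = 0.0533).

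Fatty acid synthesis genes fell or did not pass, while the most counted storage protein and oil body genes gave no call. None of 52 fatty acid synthesis genes rose and 21 fell (40.4%, against 20.4% of all tested genes; median log2 change -0.52, against -0.02). With the similar libraries merged 3 of the losses passed, and up to 2 genes of the list were higher when 1 library was left out. The palmitoyl-acyl carrier protein thioesterase FtPinG0002513500.01, which releases finished palmitate from the plastid's synthase, had 53.4, 53.6 and 51 CPM at initial maturity, against 108, 85.2 and 84.5 CPM at discoloration (log2 fold change -0.81 ± 0.16 SE, adjusted p = 0.00435). An acetyl-coenzyme A carboxylase subunit (FtPinG0002427700.01), of the enzyme that commits carbon to fatty acids, had 24.3 to 34.3 CPM at initial maturity, against 60.1 to 62.8 CPM at discoloration (log2 fold change -1.03 ± 0.19 SE, adjusted p = 0.00365). Among oil body and triacylglycerol genes 2 of 27 rose and 6 fell, 5 of these 6 matched to 11-beta-hydroxysteroid dehydrogenase, a name borne by oil body proteins called steroleosins. Peroxygenase 4 (FtPinG0008958400.01), a caleosin-type protein of the oil body surface, rose, with 718, 952 and 719 CPM at initial maturity, against 360.1, 95.4 and 88.4 CPM at discoloration (log2 fold change 2.14 ± 0.51 SE, adjusted p = 0.0115). The major oleosin (FtPinG0007882300.01), the coat protein of oil bodies, had 15141 to 19517 CPM at initial maturity, against 10181 to 11320 CPM at discoloration and did not pass (adjusted p = 0.366). Of 14 storage protein genes 2 rose, both glutelin-like genes far below the globulins in level, and 0 fell. Neither gain was left with the similar libraries merged, or in the fit with fewest calls when 1 library was left out. Genes that break fatty acids down moved in both directions, 3 higher (14.3%) and 5 lower (23.8%) of 21, near the shares of all tested genes. Acyl-coenzyme A oxidase 2 (FtPinG0001479200.01), which opens peroxisomal beta-oxidation, had 51.1 to 56.4 CPM at initial maturity, against 19.3 to 33.6 CPM at discoloration (log2 fold change 1.12 ± 0.21 SE, adjusted p = 0.00361). Long chain acyl-CoA synthetase 7 (FtPinG0004376200.01), which activates the fatty acids, had 8.37 to 11.3 CPM at initial maturity, against 21.1 to 23.7 CPM at discoloration (log2 fold change -1.26 ± 0.15 SE, adjusted p = 5.8e-04). With library totals alone, gains and losses numbered 3 and 9 for fatty acid breakdown. The fewest losses without 1 library were 10 for fatty acid synthesis. After similar libraries were merged, long chain acyl-CoA synthetase 7 kept its call and the other 4 called genes named here did not pass (adjusted p = 0.075 to 0.121).

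Starch and sugar genes changed in both directions. For starch synthesis 5 of 31 genes rose (16.1%) and 4 fell (12.9%), against 16.0% and 20.4% of all tested genes. That balance turned to 2 and 4 with library totals alone. The branching enzyme 1 gene FtPinG0003665800.01 had 159 to 169.5 CPM at initial maturity, against 60.3 to 85.7 CPM at discoloration (log2 fold change 1.20 ± 0.21 SE, adjusted p = 0.00262). Granule-bound starch synthase 1 (FtPinG0000380300.01), the maker of amylose, had 15.4, 12.1 and 15.1 CPM at initial maturity, against 64.3, 43.7 and 46.2 CPM at discoloration (log2 fold change -1.86 ± 0.20 SE, adjusted p = 3.7e-04). In starch breakdown 6 of 31 genes rose and 6 fell (19.4% each, near the shares of all tested genes), 4 and 8 with library totals alone. Alpha-amylase FtPinG0005846500.01, the secreted starch-cutting enzyme of germinating grains, had 125, 138 and 133 CPM at initial maturity, against 31.6, 22 and 20.7 CPM at discoloration (log2 fold change 2.41 ± 0.21 SE, adjusted p = 2.1e-04), after an average of 1.01 CPM in green fruit. Beta-amylase 3 (FtPinG0008513000.01), a plastid enzyme of leaf starch, moved the opposite way, with 6.18, 0.948 and 5.54 CPM at initial maturity, against 52.8, 40 and 40 CPM at discoloration (log2 fold change -3.39 ± 0.53 SE, adjusted p = 0.00162). Sucrose genes were 10 higher (19.6%) and 16 lower (31.4%) of 51. The sucrose transport protein FtPinG0005577300.01, a plasma membrane carrier that loads sucrose into cells, was the largest loss among them, with 8.47, 1.71 and 11.7 CPM at initial maturity, against 173, 219.6 and 199.6 CPM at discoloration (log2 fold change -4.76 ± 0.58 SE, adjusted p = 6.3e-04). Sugar exporters of the SWEET family went in both directions. SWEET1 (FtPinG0009672300.01) had 180.2 to 239.9 CPM at initial maturity, against 76.8 to 94.9 CPM at discoloration (log2 fold change 1.25 ± 0.24 SE, adjusted p = 0.00456). SWEET14 (FtPinG0001658200.01) had 61.7 to 102 CPM at initial maturity, against 179 to 267 CPM at discoloration (log2 fold change -1.43 ± 0.29 SE, adjusted p = 0.00567). The cell wall invertase FtPinG0003938000.01, which cleaves sucrose outside the cell, stood at 57.1 to 72.8 CPM at initial maturity, against 18.7 to 22.3 CPM at discoloration (log2 fold change 1.68 ± 0.20 SE, adjusted p = 5.8e-04). Trehalose metabolism, whose products act as sugar signals, had the highest share of gains among the sugar lists, 9 of 23 genes higher (39.1%, against 16.0% of all tested genes) and 2 lower, but 1 and 1 with the similar libraries merged. Its synthase 6 (FtPinG0007503100.01) had 89.8 to 100.3 CPM at initial maturity, against 42.2 to 52.3 CPM at discoloration (log2 fold change 1.03 ± 0.24 SE, adjusted p = 0.01). Synthase 5 (FtPinG0008629500.01) had 5.02 to 6.05 CPM at initial maturity, against 13.5 to 16.5 CPM at discoloration (log2 fold change -1.45 ± 0.22 SE, adjusted p = 0.00137). Raffinose-type sugar genes had 1 of 15 higher (6.67%) and 2 lower (13.3%). Alpha-galactosidase (FtPinG0001315100.01), which breaks these sugars down, rose (0.72), and alpha-galactosidase 1 (FtPinG0009443700.01) fell (-1.17). Galactinol synthase 2 (FtPinG0002189200.01), which starts their synthesis, had 525, 657 and 563 CPM at initial maturity, against 236, 134 and 135 CPM at discoloration and did not pass (adjusted p = 0.148). Scaled by library totals alone, gains and losses numbered 6 and 21 for sucrose genes and 5 and 2 for trehalose metabolism. The fit without the libraries that stood apart gave gains and losses of 7 and 10 for sucrose genes. The fewest gains when 1 library was left out were 2 for starch breakdown and 5 for trehalose metabolism, and the fewest losses were 9 for sucrose genes. When similar libraries were merged, granule-bound starch synthase 1, alpha-amylase, beta-amylase 3, the sucrose transport protein, the invertase and trehalose-phosphate synthase 5 kept their calls and the other 6 called genes named here did not pass (adjusted p = 0.0801 to 0.15).

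**Figure D4:**
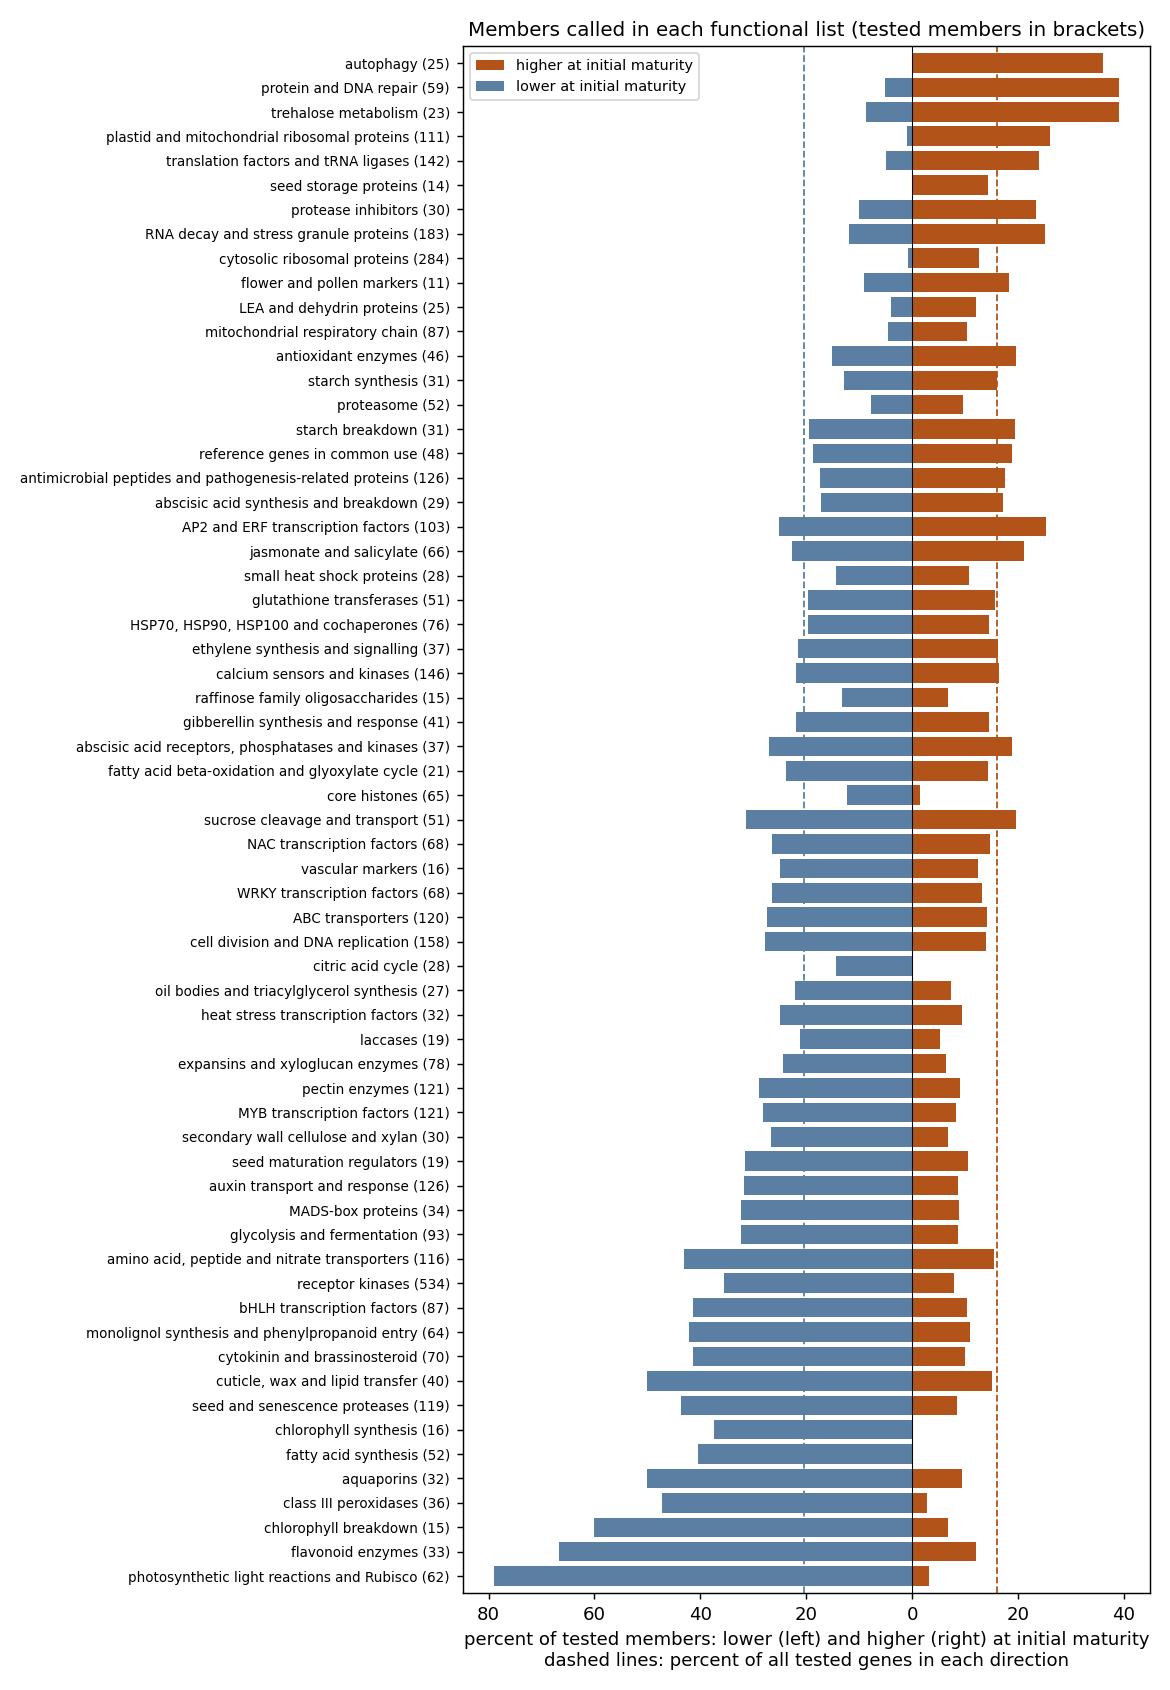
Percent of tested members that were higher (orange, right) and lower (blue, left) at initial maturity in each of 63 functional lists, with the number tested in brackets. Dashed lines mark the 16.0% and 20.4% of all tested genes. Autophagy, repair and trehalose lists stand at the top, and photosynthesis, flavonoid and chlorophyll breakdown lists at the bottom.

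Genes of the proteins that protect a drying cell were already abundant at discoloration, and few of them passed the test in this step. Of 25 LEA and dehydrin genes 3 rose and 1 fell, counts that were 2 and 3 with library totals alone and 1 and 2 without the libraries that stood apart. Lea5 (FtPinG0000941000.01) had 442, 701 and 406 CPM at initial maturity, against 93, 129 and 139.6 CPM at discoloration, with library 2 the highest (log2 fold change 2.10 ± 0.38 SE, adjusted p = 0.00331). The cold-regulated membrane protein 4 gene FtPinG0004887300.01 had 0.828 to 1.16 CPM at initial maturity, against 2.76 to 5.61 CPM at discoloration (log2 fold change -1.89 ± 0.38 SE, adjusted p = 0.00502). The most counted members gave no call. Seed biotin-containing protein SBP65 (FtPinG0003302500.01), a LEA protein of pea seeds, had 7042 to 7897 CPM at initial maturity, against 4264 to 5735 CPM at discoloration (adjusted p = 0.564). Embryonic protein DC-8 (FtPinG0003652500.01) had 4218 to 5058 CPM at initial maturity, against 3490 to 3928 CPM at discoloration (adjusted p = 0.703). Small heat shock protein genes, chaperones that hold unfolded proteins, had 3 of 28 higher (10.7%) and 4 lower (14.3%), and 2 and 9 without the libraries that stood apart. The 17.5 kDa class I heat shock protein FtPinG0003334500.01 reached 234, 320.2 and 243 CPM at initial maturity, against 43.7, 27 and 25 CPM at discoloration (log2 fold change 3.06 ± 0.35 SE, adjusted p = 4.6e-04). Its 18.5 kDa relative FtPinG0001002500.01 was read at 1.87 to 2.36 CPM at initial maturity, against 3.46 to 5.1 CPM at discoloration (log2 fold change -0.96 ± 0.23 SE, adjusted p = 0.011). The list's most counted member, an 18.1 kDa class I protein (FtPinG0008433900.01), had 8625 to 11247 CPM at initial maturity, against 8724 to 9285 CPM at discoloration, with overlapping ranges and no call (adjusted p = 0.874). Larger chaperones numbered 11 higher (14.5%) and 15 lower (19.7%) of 76, near the shares of all tested genes, and 3 and 22 with library totals alone. A DnaJ homolog (FtPinG0000292800.01), a partner of heat shock protein 70, had 61.9 to 73.6 CPM at initial maturity, against 24.2 to 28.1 CPM at discoloration (log2 fold change 1.34 ± 0.23 SE, adjusted p = 0.00277). Heat shock cognate protein 80 (FtPinG0009404600.01), a chaperone of the heat shock protein 90 family, had 11.7, 24.2 and 13.8 CPM at initial maturity, against 40.6, 116 and 111 CPM at discoloration, its discoloration library 1 well below the other 2 (log2 fold change -2.43 ± 0.52 SE, adjusted p = 0.00679). Heat stress transcription factors had 3 of 32 higher (9.38%) and 8 lower (25.0%). Among them was factor B-3 (FtPinG0005895400.01) at 6.82 to 16.1 CPM at initial maturity, against 44.5 to 47 CPM at discoloration (log2 fold change -1.83 ± 0.38 SE, adjusted p = 0.00597). Library totals alone gave gains and losses of 2 and 8 for small heat shock proteins. The fewest gains over the fits that leave out 1 library were 4 for larger chaperones and 0 for heat stress transcription factors, and the fewest losses were 1 for small heat shock proteins and 7 for larger chaperones. With the similar libraries merged, the 17.5 kDa protein kept its call and the other 6 called genes named here did not pass (adjusted p = 0.0511 to 0.118).

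Repair genes were a list with many gains, while antioxidant and glutathione genes were mixed. Of 59 genes for the repair of protein and DNA 23 rose (39%, against 16.0% of all tested genes) and 3 fell, with 11 and 6 when library totals alone were used and 3 and 1 with the similar libraries merged. Formamidopyrimidine-DNA glycosylase (FtPinG0008848000.01), which removes oxidised bases, had 37.8, 29.3 and 36.8 CPM at initial maturity, against 12.8, 9.42 and 10.8 CPM at discoloration (log2 fold change 1.66 ± 0.19 SE, adjusted p = 4.9e-04). DNA ligase 1 (FtPinG0006070200.01), which seals breaks in a strand, stood at 24.9 to 27.1 CPM at initial maturity, against 13.8 to 18.4 CPM at discoloration (log2 fold change 0.70 ± 0.15 SE, adjusted p = 0.00626). All 3 members that fell were matched to DRT100, a leucine-rich repeat protein first found in a screen for DNA damage tolerance, and the highest of them (FtPinG0009005600.01) had 0.379 to 0.708 CPM at initial maturity, against 2.96 to 6.4 CPM at discoloration (log2 fold change -3.21 ± 0.41 SE, adjusted p = 7.4e-04). Antioxidant enzymes had 9 of 46 higher (19.6%) and 7 lower (15.2%), 4 and 10 with library totals alone, and 4 and 7 without the libraries that stood apart. Superoxide dismutase 4A (FtPinG0006372400.01), which turns superoxide into peroxide, rose, with 79.8 to 98.4 CPM at initial maturity, against 31.9 to 42.4 CPM at discoloration (log2 fold change 1.23 ± 0.16 SE, adjusted p = 7.1e-04). Ascorbate peroxidase 1 (FtPinG0003988400.01), which removes peroxide with vitamin C, fell, with 29.8 to 43.3 CPM at initial maturity, against 126 to 137 CPM at discoloration (log2 fold change -1.77 ± 0.24 SE, adjusted p = 8.6e-04), as did monodehydroascorbate reductase (FtPinG0004862700.01), which regenerates the vitamin, with 25.8 to 48.1 CPM at initial maturity, against 125 to 142 CPM at discoloration (log2 fold change -1.72 ± 0.29 SE, adjusted p = 0.00242). The abundant 1-Cys peroxiredoxin (FtPinG0007446600.01), a seed antioxidant, had 3184 to 4458 CPM at initial maturity, against 3431 to 4393 CPM at discoloration and no call (adjusted p = 0.81). Glutathione transferases, which attach glutathione to toxic compounds, had 8 of 51 higher (15.7%) and 10 lower (19.6%), close to the shares of all tested genes. Transferase F13 (FtPinG0008530800.01) had 89.7, 143 and 96.6 CPM at initial maturity, against 17.8, 6.04 and 6.82 CPM at discoloration (log2 fold change 3.43 ± 0.41 SE, adjusted p = 5.7e-04). A parC-type gene (FtPinG0006850800.01) had 16.6 to 17.9 CPM at initial maturity, against 42.6 to 59.8 CPM at discoloration (log2 fold change -1.50 ± 0.17 SE, adjusted p = 4.4e-04). The fewest gains without 1 library were 11 for repair and 3 for antioxidant enzymes, and the fewest losses were 6 for glutathione transferases. Merging the similar libraries ended the call of DNA ligase 1 and monodehydroascorbate reductase (adjusted p = 0.0532 to 0.155) and no other named here. Calls were also lost with library totals as the sole scaling for DNA ligase 1 (adjusted p = 0.14).

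Abscisic acid genes moved in both directions, in synthesis as in signalling. Of 29 genes of its synthesis and breakdown 5 rose and 5 fell, close to the shares of all tested genes, and 9 and 4 without the libraries that stood apart. The dioxygenase NCED1 (FtPinG0006853200.01), whose cleavage of carotenoids limits abscisic acid synthesis, had 21.9, 22.6 and 25.6 CPM at initial maturity, against 7.6, 2.35 and 3.83 CPM at discoloration (log2 fold change 2.35 ± 0.36 SE, adjusted p = 0.00146). Xanthoxin dehydrogenase (FtPinG0000351900.01), a later step, had 56.9 to 71.7 CPM at initial maturity, against 30.6 to 32.8 CPM at discoloration (log2 fold change 0.99 ± 0.20 SE, adjusted p = 0.00552). An abscisic acid 8'-hydroxylase 4 gene (FtPinG0003614600.01), which breaks the hormone down, had 0.382, 0.253 and 0.193 CPM at initial maturity, against 3.72, 5.73 and 6.45 CPM at discoloration (log2 fold change -4.24 ± 0.83 SE, adjusted p = 0.00457). Zeaxanthin epoxidase (FtPinG0005946900.01), an early step of the route, also fell, with 14.2 to 16.4 CPM at initial maturity, against 59 to 85.7 CPM at discoloration (log2 fold change -2.15 ± 0.18 SE, adjusted p = 1.8e-04). Among receptors, phosphatases and kinases 7 of 37 rose and 10 fell. Protein phosphatase 2C 24 (FtPinG0002889200.01), of a family that blocks the signal, had 291 to 372 CPM at initial maturity, against 163 to 186 CPM at discoloration (log2 fold change 0.91 ± 0.19 SE, adjusted p = 0.00594). The receptor PYR1 (FtPinG0004424000.01) had 6.18 to 7.79 CPM at initial maturity, against 12.6 to 24 CPM at discoloration (log2 fold change -1.54 ± 0.34 SE, adjusted p = 0.00766). Kinase SRK2E (FtPinG0009356000.01), which passes the signal on, had 156 to 279.5 CPM at initial maturity, against 89.5 to 89.9 CPM at discoloration (log2 fold change 1.15 ± 0.23 SE, adjusted p = 0.00542). SRK2B (FtPinG0007904800.01) fell (log2 fold change -0.62). Of 19 seed maturation regulators 2 rose (10.5%) and 6 fell (31.6%), 1 and 2 without the libraries that stood apart. Genes matched to ABSCISIC ACID-INSENSITIVE 5-like protein 5, a transcription factor of the abscisic acid response, went both ways. Copy FtPinG0003196200.01 had 91.6 to 104 CPM at initial maturity, against 31 to 34.7 CPM at discoloration (log2 fold change 1.55 ± 0.28 SE, adjusted p = 0.0035). Copy FtPinG0009765500.01 had 5.56 to 5.8 CPM at initial maturity, against 15.1 to 17.2 CPM at discoloration (log2 fold change -1.49 ± 0.14 SE, adjusted p = 2.2e-04). Scaled by library totals alone, gains and losses numbered 3 and 13 for receptors, phosphatases and kinases. The fewest gains when 1 library was left out were 3 for receptors, phosphatases and kinases, and the fewest losses were 5 for receptors, phosphatases and kinases and 3 for seed maturation regulators. After similar libraries were merged, NCED1, zeaxanthin epoxidase and the lower ABI5-like gene kept their calls and the other 7 called genes named here did not pass (adjusted p = 0.0596 to 0.131).

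Gibberellin genes moved in both directions, and genes of the growth hormones auxin, cytokinin and brassinosteroid had more losses than gains. Gibberellin genes had 6 of 41 higher (14.6%) and 9 lower (22.0%), close to the 16.0% and 20.4% of all tested genes. Gibberellin 2-beta-dioxygenase 1, which inactivates the hormone, was higher in 2 copies. Copy FtPinG0007406000.01 had 62, 119.6 and 62 CPM at initial maturity, against 4.95, 3.51 and 3.55 CPM at discoloration (log2 fold change 4.34 ± 0.31 SE, adjusted p = 1.0e-04). Copy FtPinG0000249600.01 had 139 to 238 CPM at initial maturity, against 61.5 to 84.2 CPM at discoloration (log2 fold change 1.33 ± 0.24 SE, adjusted p = 0.00326). Gibberellin 20 oxidase 1 (FtPinG0008198800.01), which makes the hormone's precursors, rose as well, with 41, 83.8 and 40.4 CPM at initial maturity, against 5.61, 1.47 and 1.82 CPM at discoloration (log2 fold change 4.22 ± 0.61 SE, adjusted p = 0.00117). The DELLA protein GAI (FtPinG0003934400.01), a repressor that gibberellin removes, fell, with 3.35 to 6.24 CPM at initial maturity, against 29.3 to 34.6 CPM at discoloration (log2 fold change -2.69 ± 0.42 SE, adjusted p = 0.00164). Of 126 auxin genes 40 fell (31.7%, against 20.4% of all tested genes) and 11 rose (median log2 change -0.70). The most abundant to fall on every criterion was auxin response factor 2 (FtPinG0005575800.01) with 32.4 to 35.7 CPM at initial maturity, against 89.9 to 119.5 CPM at discoloration (log2 fold change -1.69 ± 0.17 SE, adjusted p = 2.9e-04). Auxin-binding protein T92 (FtPinG0006955500.01) was among the 11 that rose (log2 fold change 0.95 ± 0.19 SE, adjusted p = 0.00511). Cytokinin and brassinosteroid genes had 29 of 70 lower (41.4%) and 7 higher. Cytochrome P450 85A1 (FtPinG0004511000.01), which makes brassinosteroids, had 10.2 to 11.9 CPM at initial maturity, against 22.9 to 29 CPM at discoloration (log2 fold change -1.17 ± 0.16 SE, adjusted p = 0.00101). BES1/BZR1 homolog protein 2 (FtPinG0003616300.01), a factor of the brassinosteroid response, had 29.8 to 39.9 CPM at initial maturity, against 18.3 to 23.1 CPM at discoloration (log2 fold change 0.84 ± 0.16 SE, adjusted p = 0.00456). For ethylene 6 of 37 genes rose (16.2%) and 8 fell (21.6%), close to the shares of all tested genes. For jasmonate and salicylate 14 of 66 rose (21.2%) and 15 fell (22.7%). A 13-lipoxygenase (FtPinG0003282300.01) and allene oxide cyclase 4 (FtPinG0005830400.01), both steps of jasmonate synthesis, rose by log2 fold changes of 2.50 and 2.09, whereas lipoxygenase 6 (FtPinG0000487200.01) had 3.03 to 10.5 CPM at initial maturity, against 68.7 to 78.4 CPM at discoloration (log2 fold change -3.22 ± 0.51 SE, adjusted p = 0.00189). Library totals alone gave gains and losses of 4 and 58 for auxin genes, 3 and 34 for cytokinin and brassinosteroid genes, 2 and 10 for ethylene genes and 9 and 20 for jasmonate and salicylate. When the libraries that stood apart were left out, gains and losses numbered 3 and 7 for gibberellin genes, 5 and 36 for auxin genes and 3 and 6 for ethylene genes. The fewest gains over the fits that leave out 1 library were 3 for gibberellin genes, 5 for auxin genes, 4 for cytokinin and brassinosteroid genes, 3 for ethylene genes and 8 for jasmonate and salicylate, and the fewest losses were 23 for auxin genes and 5 for ethylene genes. When similar libraries were merged, 2-beta-dioxygenase copy FtPinG0000249600.01, auxin-binding protein T92, BES1/BZR1 homolog 2, the 13-lipoxygenase and allene oxide cyclase 4 no longer passed (adjusted p = 0.0518 to 0.136) and the other 6 called genes named here did. A call did not hold with library totals as the sole scaling for BES1/BZR1 homolog 2 (adjusted p = 0.0731).

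Of 87 bHLH transcription factor genes 36 fell (41.4%, against 20.4% of all tested genes) and 9 rose (10.3%, against 16.0%). The losses of other families lay nearer to the share of all genes, with 34 of 121 MYB genes lower (28.1%), 18 of 68 NAC genes lower (26.5%) and 18 of 68 WRKY genes lower (26.5%). Gains numbered 10 for MYB (8.26%), 10 for NAC (14.7%) and 9 for WRKY genes (13.2%). AP2 and ERF genes had 26 of 103 higher and 26 lower (25.2% each), 19 and 31 with library totals alone. Single factors of these families rose. MYB44 (FtPinG0005410000.01), a stress-responsive repressor in Arabidopsis, had 156, 243 and 181 CPM at initial maturity, against 50.7, 46.6 and 49.5 CPM at discoloration (log2 fold change 1.98 ± 0.26 SE, adjusted p = 7.5e-04). bHLH69 (FtPinG0007946400.01) had 104, 253 and 102 CPM at initial maturity, against 30.1, 32.2 and 33.6 CPM at discoloration (log2 fold change 2.26 ± 0.48 SE, adjusted p = 0.00659). NAC domain-containing protein 40 (FtPinG0007173800.01), which in Arabidopsis acts on germination under salt, had 83.7 to 131 CPM at initial maturity, against 27.5 to 36.8 CPM at discoloration (log2 fold change 1.69 ± 0.24 SE, adjusted p = 0.00107). WRKY transcription factor 20 (FtPinG0006884300.01) had 24.9 to 26.3 CPM at initial maturity, against 4.64 to 5.86 CPM at discoloration (log2 fold change 2.29 ± 0.14 SE, adjusted p = 7.0e-05). Other members of the same families fell. NAC transcription factor 56 (FtPinG0002731100.01), linked to ripening and seed development in Arabidopsis, had 48.8 to 52.5 CPM at initial maturity, against 147 to 194 CPM at discoloration (log2 fold change -1.68 ± 0.16 SE, adjusted p = 2.8e-04). WRKY transcription factor 44 (FtPinG0005806300.01), known in Arabidopsis for seed coat pigment and mucilage, had 7.46 to 13.8 CPM at initial maturity, against 38.3 to 38.6 CPM at discoloration (log2 fold change -1.74 ± 0.23 SE, adjusted p = 8.4e-04). MADS-box genes, which set floral organ and seed coat identity, had 3 of 34 higher (8.82%) and 11 lower (32.4%). FBP24 (FtPinG0001785400.01), a seed coat factor in petunia, had 128, 287 and 122 CPM at initial maturity, against 40.2, 38.1 and 40.5 CPM at discoloration (log2 fold change 2.18 ± 0.32 SE, adjusted p = 0.0012). AGAMOUS (FtPinG0002495300.01), a carpel identity factor, had 34.9 to 38.8 CPM at initial maturity, against 106 to 144 CPM at discoloration (log2 fold change -1.83 ± 0.26 SE, adjusted p = 0.00105). With library totals alone, gains and losses numbered 1 and 44 for bHLH genes and 5 and 21 for NAC genes. Without the libraries that stood apart, gains and losses numbered 4 and 27 for bHLH genes, 6 and 13 for NAC genes, 7 and 11 for WRKY genes and 15 and 18 for AP2 and ERF genes. The fewest gains without 1 library were 4 for bHLH genes and 14 for AP2 and ERF genes, and the fewest losses were 8 for WRKY genes, 17 for AP2 and ERF genes and 7 for MADS-box proteins. With the similar libraries merged, every called gene named here kept its call, but not every gene that the fixed rule picked is described. Left out were WRKY4 (log2 fold change 1.08), AP2-like At2g41710 (0.98), ethylene-responsive factor 1A (-1.26), MYB86 (-1.21) and bHLH113 (-1.74). Merging left gains and losses of 5 and 9 for MYB, 2 and 7 for NAC and 3 and 4 for WRKY genes. It left 1 and 8 for bHLH, 1 and 3 for MADS-box and 7 and 7 for AP2 and ERF genes.

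Photosynthesis had the highest share of losses among the 63 lists. Of 62 photosynthesis genes 49 fell (79%, against 20.4% of all tested genes; median log2 change -3.06) and 2 rose, and 34 of the losses were kept with the similar libraries merged. The list took 0.0242%, 0.0217% and 0.0253% of the counts at initial maturity and 0.141%, 0.167% and 0.168% at discoloration. A chlorophyll a-b binding protein (FtPinG0002327100.01), the antenna of the photosystems, had 2.36, 12.4 and 3.48 CPM at initial maturity, against 61.4, 194 and 188 CPM at discoloration (log2 fold change -4.60 ± 0.68 SE, adjusted p = 0.00132). The photosystem II 10 kDa polypeptide (FtPinG0000240800.01), part of the oxygen-evolving side, was read at 7.46 to 13 CPM at initial maturity, against 73.9 to 89.3 CPM at discoloration (log2 fold change -2.96 ± 0.27 SE, adjusted p = 2.2e-04). Ferredoxin--NADP reductase of the root type (FtPinG0004266100.01), which works in tissue without light, was 1 of the 2 that rose, with 53.3 to 68.4 CPM at initial maturity, against 31.5 to 34.7 CPM at discoloration (log2 fold change 0.85 ± 0.15 SE, adjusted p = 0.00287). Chlorophyll synthesis had 6 of 16 genes lower (37.5%) and 0 higher. An example was magnesium chelatase subunit ChlH (FtPinG0005894400.01) with 2.7 to 4.01 CPM at initial maturity, against 11.8 to 17.3 CPM at discoloration (log2 fold change -2.03 ± 0.34 SE, adjusted p = 0.00244). Chlorophyll breakdown also fell, in 9 of 15 genes, with 1 higher. Pheophorbide a oxygenase (FtPinG0001295500.01), which opens the chlorophyll ring, had 14, 7.14 and 13.1 CPM at initial maturity, against 56.3, 48.7 and 53.4 CPM at discoloration (log2 fold change -2.21 ± 0.25 SE, adjusted p = 4.3e-04). A pheophytinase (FtPinG0008999900.01) had 24.1 to 36.6 CPM at initial maturity, against 63.8 to 108 CPM at discoloration (log2 fold change -1.30 ± 0.25 SE, adjusted p = 0.00398). Merging the similar libraries ended the call of the root-type reductase and the pheophytinase (adjusted p = 0.0535 to 0.0792) and no other named here.

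For lignin and wall formation, known for the hull, the clearest excess of losses over the 20.4% of all tested genes was in monolignol and class III peroxidase genes. Of 64 monolignol and phenylpropanoid genes 27 fell (42.2%) and 7 rose. Cinnamoyl-CoA reductase 1 (FtPinG0009234700.01), which commits phenylpropanoids to lignin, had 88.1, 33.4 and 96.7 CPM at initial maturity, against 888, 718 and 700.3 CPM at discoloration (log2 fold change -3.40 ± 0.55 SE, adjusted p = 0.00189), after 513, 1554 and 1611 CPM in green fruit. Phenylalanine ammonia-lyase (FtPinG0005713400.01), the entry of the route, stood at 42, 35.9 and 40.5 CPM at initial maturity, against 178, 405 and 421 CPM at discoloration, with discoloration library 1 below the other 2 and above all initial maturity libraries (log2 fold change -3.08 ± 0.35 SE, adjusted p = 4.7e-04). Caffeic acid 3-O-methyltransferase (FtPinG0005933600.01) went against the list, with 24.1 to 29.8 CPM at initial maturity, against 10.3 to 15.6 CPM at discoloration (log2 fold change 1.02 ± 0.21 SE, adjusted p = 0.00622). Laccases, which join monolignols, had 1 of 19 higher and 4 lower (21.1%, near the share of all genes). Their median log2 change was nonetheless -1.62, against -0.02 for all tested genes. Copies matched to laccase-9 went in opposite directions. The higher, FtPinG0001199800.01, had 122.5 to 180.4 CPM at initial maturity, against 21.3 to 54.4 CPM at discoloration (log2 fold change 2.27 ± 0.47 SE, adjusted p = 0.00575). The lower, FtPinG0008085400.01, had 0.253 to 2.68 CPM at initial maturity, against 22.7 to 25.7 CPM at discoloration (log2 fold change -3.75 ± 0.52 SE, adjusted p = 0.00105). Class III peroxidases had 17 of 36 lower (47.2%) and 1 higher, among the losses peroxidase 4 (FtPinG0008141200.01) at 1.07 to 4.51 CPM at initial maturity, against 45.1 to 94.5 CPM at discoloration (log2 fold change -4.72 ± 0.48 SE, adjusted p = 3.1e-04). In secondary wall cellulose and xylan 2 of 30 genes rose and 8 fell (26.7%), and 1 and 3 without the libraries that stood apart. IRX7 (FtPinG0006453200.01), a xylan enzyme, had 8.91 to 13.9 CPM at initial maturity, against 65.2 to 72.5 CPM at discoloration (log2 fold change -2.52 ± 0.34 SE, adjusted p = 9.5e-04). Expansins and xyloglucan enzymes, which loosen growing walls, had 5 of 78 higher and 19 lower (24.4%), and pectin enzymes 11 of 121 higher and 35 lower (28.9%). Pectinesterase 31 (FtPinG0006278400.01) rose, with 79.6 to 86.2 CPM at initial maturity, against 26.3 to 27.4 CPM at discoloration (log2 fold change 1.63 ± 0.15 SE, adjusted p = 2.2e-04). Xyloglucan hydrolase 24 (FtPinG0009754700.01) fell, with 4.01, 1.45 and 5.99 CPM at initial maturity, against 35, 99.6 and 94.1 CPM at discoloration (log2 fold change -4.32 ± 0.87 SE, adjusted p = 0.00518). Library totals alone gave gains and losses of 2 and 34 for monolignol genes and 2 and 25 for expansins and xyloglucan enzymes. When the libraries that stood apart were left out, gains and losses numbered 4 and 18 for monolignol genes and 4 and 15 for class III peroxidases. The fewest gains over the fits that leave out 1 library were 2 for monolignol genes and 2 for expansins and xyloglucan enzymes, and the fewest losses were 4 for secondary wall genes and 23 for pectin enzymes. After similar libraries were merged, the methyltransferase, the higher laccase-9 and xyloglucan hydrolase 24 no longer passed (adjusted p = 0.0556 to 0.0874) and the other 6 called genes named here did. A call did not hold with library totals as the sole scaling for the methyltransferase (adjusted p = 0.0718) and without the pair of libraries that stood apart for the methyltransferase (adjusted p = 0.0504).

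Flavonoid enzymes had 22 of 33 genes lower (66.7%, against 20.4% of all tested genes) and 4 higher (12.1%, against 16.0%). The median log2 change of the list was -1.69. Chalcone synthase (FtPinG0008131000.01), the first enzyme of the route, had 66.1, 49.7 and 71.2 CPM at initial maturity, against 519, 309 and 307 CPM at discoloration (log2 fold change -2.60 ± 0.45 SE, adjusted p = 0.00264). A chalcone isomerase 3 gene (FtPinG0008656900.01) stayed at a high level but fell, with 226 to 339.7 CPM at initial maturity, against 767 to 825 CPM at discoloration (log2 fold change -1.43 ± 0.26 SE, adjusted p = 0.00324). Among the 4 that rose was a flavonol synthase gene of low level (FtPinG0001742000.01) with 1.85, 3.16 and 1.67 CPM at initial maturity, against 0.204, 0 and 0 CPM at discoloration (log2 fold change 5.02 ± 0.91 SE, adjusted p = 0.00328). Cuticle, wax and lipid transfer genes, which waterproof surfaces, had 20 of 40 lower (50%) and 6 higher. 3-ketoacyl-CoA synthase 21 (FtPinG0001442400.01), of wax chain elongation, had 39.4, 8.4 and 39.2 CPM at initial maturity, against 516, 417 and 426 CPM at discoloration (log2 fold change -3.97 ± 0.52 SE, adjusted p = 7.9e-04). A non-specific lipid-transfer protein (FtPinG0001022700.01) rose, with 778 to 910.0 CPM at initial maturity, against 284 to 417 CPM at discoloration (log2 fold change 1.35 ± 0.24 SE, adjusted p = 0.00309). With library totals alone, gains and losses numbered 3 and 22 for cuticle genes. Without the libraries that stood apart, gains and losses numbered 3 and 16 for cuticle genes. The fewest gains without 1 library were 1 for flavonoid enzymes and 2 for cuticle genes. When similar libraries were merged, 3-ketoacyl-CoA synthase 21 kept its call and the other 4 called genes named here did not pass (adjusted p = 0.0501 to 0.112).

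**Figure D5:**
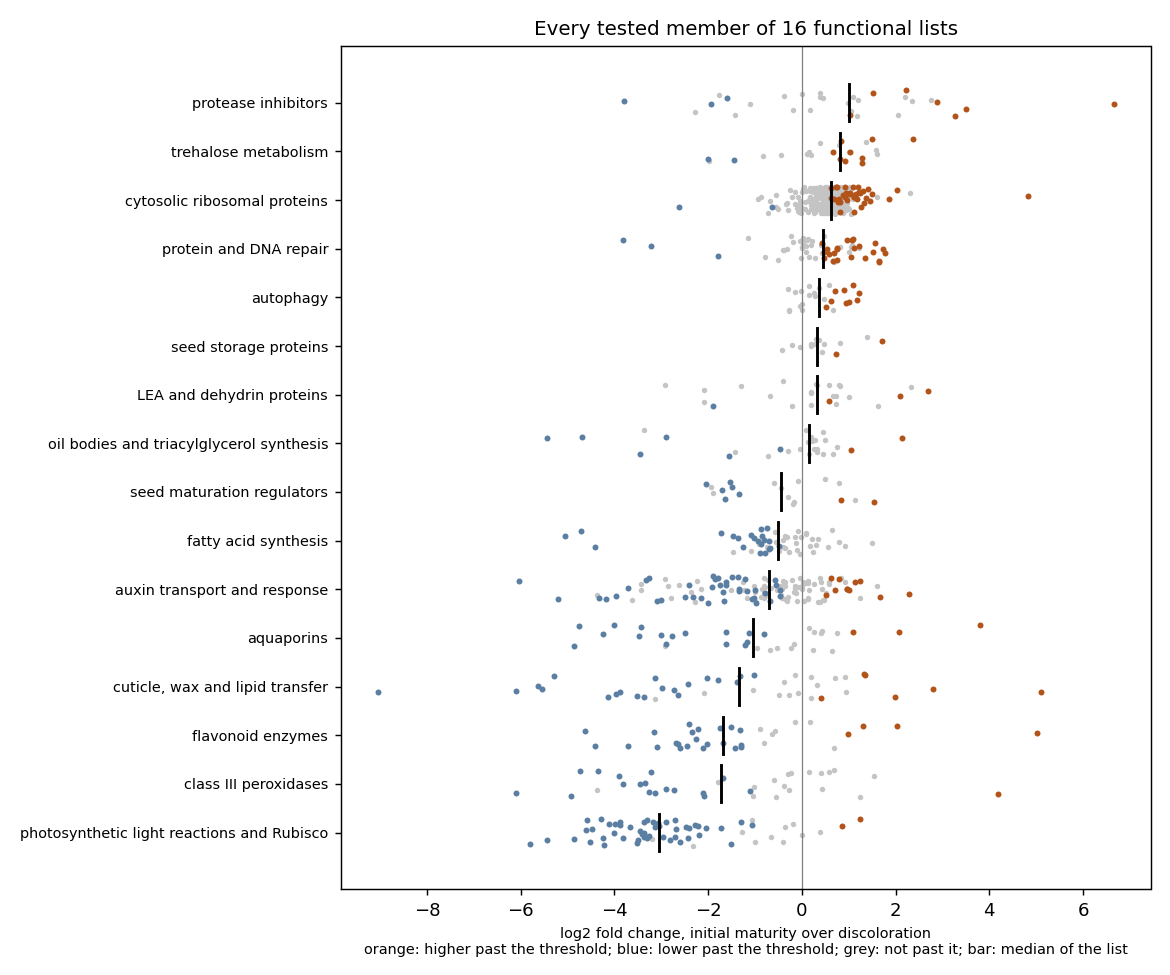
Log2 fold change (initial maturity over discoloration) of every tested member of 16 lists, 1 point per gene, with the median of each list as a bar. Orange and blue points passed the test. Photosynthesis, peroxidase, flavonoid and cuticle genes lie mostly left of 0, and ribosomal genes mostly form a narrow band just right of it. The storage, LEA and oil body lists have medians of 0.33, 0.33 and 0.15.

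Among genes of the translation machinery, organelle ribosomal proteins and translation factors had more gains than the 16.0% of all tested genes and cytosolic ribosomal proteins fewer. Of 284 cytosolic ribosomal protein genes 36 rose (12.7%, below the 16.0% of all tested genes) and 2 fell, with a median log2 change of 0.61 over all of them. The counts were 16 and 7 with library totals alone, and 3 and 7 without the libraries that stood apart. The balance of calls thus turned without those libraries. The list took 2.35%, 2.98% and 2.37% of the counts at initial maturity and 1.76%, 2.35% and 2.31% at discoloration. Ribosomal protein L13a-3 (FtPinG0005562700.01) was the most abundant to meet every criterion, with 152 to 190.3 CPM at initial maturity, against 59.2 to 64.5 CPM at discoloration (log2 fold change 1.46 ± 0.35 SE, adjusted p = 0.0112). Ribosomal proteins of plastids and mitochondria had 29 of 111 higher (26.1%) and 1 lower, but 4 and 0 with the similar libraries merged. An example was S31 of the plastid (FtPinG0005178400.01) with 56.4 to 102 CPM at initial maturity, against 34.1 to 38.1 CPM at discoloration (log2 fold change 1.06 ± 0.24 SE, adjusted p = 0.00941). Translation factors and tRNA ligases had 34 of 142 higher (23.9%) and 7 lower, but 7 and 18 with library totals alone. Initiation factor 4A-10 (FtPinG0008414400.01), an RNA helicase, had 112 to 113 CPM at initial maturity, against 53.9 to 70.6 CPM at discoloration (log2 fold change 0.82 ± 0.18 SE, adjusted p = 0.00834). RNA decay and stress granule genes, which store or remove messenger RNA, had 46 of 183 higher (25.1%) and 22 lower, and 25 and 36 with library totals alone. Cell division and DNA replication genes had 44 of 158 lower (27.8%, against 20.4% of all tested genes) and 22 higher (13.9%). The most abundant to fall on every criterion was kinesin FRA1 (FtPinG0003193800.01), a motor that guides cellulose deposition, with 26.9, 16 and 29 CPM at initial maturity, against 119.6, 131 and 127 CPM at discoloration (log2 fold change -2.39 ± 0.32 SE, adjusted p = 8.2e-04). Histones had 8 of 65 lower (12.3%) and 1 higher (1.54%), both below the shares of all tested genes. An example was histone H1 (FtPinG0006501300.01) at 50.9 to 70.9 CPM at initial maturity, against 125 to 143 CPM at discoloration (log2 fold change -1.06 ± 0.18 SE, adjusted p = 0.00256). Scaled by library totals alone, gains and losses numbered 11 and 3 for plastid and mitochondrial ribosomal proteins, 10 and 59 for cell division and 1 and 19 for histones. The fit without the libraries that stood apart gave gains and losses of 13 and 1 for plastid and mitochondrial ribosomal proteins, 18 and 4 for translation factors and ligases, 14 and 30 for cell division and 1 and 5 for histones. The fewest gains when 1 library was left out were 9 for cytosolic ribosomal proteins, 13 for plastid and mitochondrial ribosomal proteins, 11 for translation factors and ligases, 25 for RNA decay genes and 10 for cell division, and the fewest losses were 4 for translation factors and ligases, 12 for RNA decay genes, 25 for cell division and 3 for histones. With the similar libraries merged, FRA1 kept its call and the other 4 called genes named here did not pass (adjusted p = 0.0733 to 0.12). The threshold was missed with library totals as the sole scaling for S31 (adjusted p = 0.0598) and factor 4A-10 (adjusted p = 0.0558) and without the pair of libraries that stood apart for L13a-3 (adjusted p = 0.0797) and S31 (adjusted p = 0.0522).

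In energy metabolism, glycolysis and fermentation genes had 30 of 93 lower (32.3%, against 20.4% of all tested genes) and 8 higher. Alcohol dehydrogenase 1 (FtPinG0000369600.01), which makes ethanol when oxygen is short, had 8.22, 3.98 and 9.85 CPM at initial maturity, against 136, 186 and 183 CPM at discoloration (log2 fold change -4.51 ± 0.45 SE, adjusted p = 3.0e-04). A further copy (FtPinG0009670800.01) had 657 to 790.3 CPM at initial maturity, against 686 to 774 CPM at discoloration and no call (adjusted p = 0.888). Pyruvate decarboxylase 2 (FtPinG0007655100.01), the step before it, rose, with 116 to 133 CPM at initial maturity, against 62.2 to 64.6 CPM at discoloration (log2 fold change 0.97 ± 0.15 SE, adjusted p = 0.00153). Aldolase FtPinG0000780400.01, in mid glycolysis, had 57.1 to 61.9 CPM at initial maturity, against 156 to 161 CPM at discoloration (log2 fold change -1.40 ± 0.16 SE, adjusted p = 4.7e-04). The citric acid cycle had 4 of 28 genes lower (14.3%, below the share of all tested genes) and 0 higher. Glyoxysomal malate dehydrogenase (FtPinG0000998900.01), listed there, had 23.3 to 28 CPM at initial maturity, against 43.8 to 51 CPM at discoloration (log2 fold change -0.85 ± 0.15 SE, adjusted p = 0.00305). The respiratory chain had 9 of 87 higher (10.3%) and 4 lower (4.60%), both below the shares of all tested genes. Its counts were 3 and 19 with library totals alone and 6 and 12 without the libraries that stood apart. Its NADH dehydrogenase iron-sulfur protein 7 (FtPinG0002233200.01), of complex I, had 127, 184 and 133 CPM at initial maturity, against 59.8, 50.3 and 46.6 CPM at discoloration (log2 fold change 1.50 ± 0.19 SE, adjusted p = 7.3e-04). Library totals alone gave gains and losses of 4 and 48 for glycolysis and fermentation and 0 and 13 for the citric acid cycle. The fewest gains over the fits that leave out 1 library were 5 for glycolysis and fermentation and 3 for the respiratory chain, and the fewest losses numbered 1 for the respiratory chain. Merging the similar libraries ended the call of pyruvate decarboxylase 2 and malate dehydrogenase (adjusted p = 0.0723 to 0.0958) and no other named here.

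Among protein turnover genes, proteases were more often lower than higher, and protease inhibitors and autophagy genes more often higher than lower. Of 119 seed and senescence proteases 52 fell (43.7%, against 20.4% of all tested genes; median log2 change -1.04) and 10 rose (8.40%, against 16.0%). Their summed CPM was nonetheless higher at initial maturity, at 8612, 10121 and 8769 against 7862, 6411 and 6415 at discoloration. Their shares of counts overlapped. A vacuolar-processing enzyme (FtPinG0009058500.01), which cuts storage proteins into their mature chains, had 53, 20.8 and 59.3 CPM at initial maturity, against 329.8, 294 and 292 CPM at discoloration (log2 fold change -2.78 ± 0.37 SE, adjusted p = 8.5e-04). Cysteine proteinase RD21a (FtPinG0003000200.01), a drought-induced vacuolar protease, had 165 to 210.2 CPM at initial maturity, against 349.7 to 482 CPM at discoloration (log2 fold change -1.04 ± 0.23 SE, adjusted p = 0.00791). Aleurain (FtPinG0007744500.01) had 62.7, 41.8 and 62.7 CPM at initial maturity, against 407, 169.7 and 169.6 CPM at discoloration, discoloration library 1 being the highest (log2 fold change -2.16 ± 0.42 SE, adjusted p = 0.00441). Subtilisin-like protease SBT1.7 (FtPinG0002662200.01), needed in Arabidopsis for seed coat mucilage release, rose, with 344 to 449.8 CPM at initial maturity, against 135 to 165 CPM at discoloration (log2 fold change 1.48 ± 0.20 SE, adjusted p = 9.4e-04). Protease inhibitors had 7 of 30 higher and 3 lower (median log2 change 1.01). Cysteine proteinase inhibitor 6 (FtPinG0002981400.01) reached 1684, 3561 and 1749 CPM at initial maturity, against 564, 459 and 468 CPM at discoloration (log2 fold change 2.23 ± 0.42 SE, adjusted p = 0.00392). A proteinase inhibitor (FtPinG0007439100.01) had 259 to 339.7 CPM at initial maturity, against 26.3 to 32.5 CPM at discoloration (log2 fold change 3.27 ± 0.50 SE, adjusted p = 0.00148). The most counted of the list, trypsin inhibitor 2c (FtPinG0008672700.01), had 17399 to 32585 CPM at initial maturity, against 23031 to 33580 CPM at discoloration and no call (adjusted p = 1). Autophagy genes, which carry cell contents to the vacuole, had 9 of 25 higher (36%, against 16.0% of all tested genes) and 0 lower. These counts were 5 and 3 with library totals alone and 1 and 0 with the similar libraries merged. Autophagy-related protein 8f (FtPinG0004795700.01), which coats the autophagosome, had 98.3, 177 and 95.4 CPM at initial maturity, against 53.1, 52.1 and 53.5 CPM at discoloration (log2 fold change 1.22 ± 0.24 SE, adjusted p = 0.0047). Protein 18g (FtPinG0008587700.01) had 65.4 to 72.1 CPM at initial maturity, against 28.7 to 38.9 CPM at discoloration (log2 fold change 1.10 ± 0.16 SE, adjusted p = 0.00132). The proteasome had 5 of 52 higher (9.62%) and 4 lower (7.69%), both below the shares of all tested genes. Its counts were 3 and 20 with library totals alone and 3 and 4 without the libraries that stood apart. With library totals alone, gains and losses numbered 5 and 63 for proteases. Without the libraries that stood apart, gains and losses numbered 10 and 34 for proteases. The fewest gains without 1 library were 4 for proteases, and the fewest losses were 34 for proteases. After similar libraries were merged, the vacuolar-processing enzyme and the proteinase inhibitor kept their calls and the other 6 called genes named here did not pass (adjusted p = 0.0522 to 0.117).

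Among transport genes for water and nitrogen, losses outnumbered gains. Aquaporins, the water channels, had 16 of 32 lower (50%, against 20.4% of all tested genes) and 3 higher. The plasma membrane channel PIP1-4 (FtPinG0002889000.01) had 183, 84.5 and 207 CPM at initial maturity, against 369, 372 and 363 CPM at discoloration, library 2 the lowest (log2 fold change -1.22 ± 0.31 SE, adjusted p = 0.0142). The vacuolar channel TIP3-2 (FtPinG0005321900.01), of a type known from seed storage vacuoles, was by far the most counted and had 6574, 9455 and 7169 CPM at initial maturity, against 7416, 6164 and 6070 CPM at discoloration, with overlapping ranges and no call (adjusted p = 0.799). NIP6-1 (FtPinG0000695600.01), a boric acid channel in Arabidopsis, rose, with 11.5 to 12.9 CPM at initial maturity, against 5.37 to 6.07 CPM at discoloration (log2 fold change 1.10 ± 0.15 SE, adjusted p = 0.00102). Amino acid, peptide and nitrate transporters had 50 of 116 lower (43.1%) and 18 higher (15.5%). Their summed CPM was nonetheless higher at initial maturity, at 2462, 2685 and 2452 against 2194, 1945 and 1914 at discoloration. Their shares of counts overlapped. Oligopeptide transporter 8 (FtPinG0005618800.01) was the exception in level, with 552, 931 and 514 CPM at initial maturity, against 67.7, 14.7 and 15.6 CPM at discoloration (log2 fold change 4.35 ± 0.67 SE, adjusted p = 0.00154). NRT1/PTR family 2.7 (FtPinG0001435800.01), a nitrate exporter in Arabidopsis, had 2.09 to 7.34 CPM at initial maturity, against 48 to 76.1 CPM at discoloration (log2 fold change -3.47 ± 0.61 SE, adjusted p = 0.00295). ABC transporters had 33 of 120 lower (27.5%) and 17 higher (14.2%). G family member 15 (FtPinG0000981900.01), of a group that exports cuticle lipids, had 33.1 to 35.7 CPM at initial maturity, against 121 to 129 CPM at discoloration (log2 fold change -1.86 ± 0.29 SE, adjusted p = 0.00159). C family member 3 (FtPinG0000485900.01), a vacuolar pump for conjugates, had 50.4 to 71.9 CPM at initial maturity, against 12.3 to 22.2 CPM at discoloration (log2 fold change 1.99 ± 0.35 SE, adjusted p = 0.00282). Scaled by library totals alone, gains and losses numbered 7 and 47 for ABC transporters. The fit without the libraries that stood apart gave gains and losses of 15 and 20 for ABC transporters. The fewest gains when 1 library was left out were 8 for ABC transporters. When similar libraries were merged, oligopeptide transporter 8, NRT1/PTR 2.7 and G member 15 kept their calls and the other 3 called genes named here did not pass (adjusted p = 0.0607 to 0.117).

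Defence genes rose and fell in equal number, 22 and 22 of 126 (17.5% each), 16 and 33 with library totals alone. The antimicrobial peptide and endochitinase genes described above are among those tested. Chitinase 5 (FtPinG0004180700.01) reached 447, 339 and 472 CPM at initial maturity, against 47.6, 7.68 and 7.85 CPM at discoloration, with discoloration library 1 above the other 2 (log2 fold change 4.32 ± 0.93 SE, adjusted p = 0.00694). Thaumatin-like protein 1 (FtPinG0003648700.01), of a family of antifungal proteins, had 229.5, 143 and 248 CPM at initial maturity, against 36.1, 43.6 and 44.1 CPM at discoloration (log2 fold change 2.32 ± 0.31 SE, adjusted p = 8.9e-04). Defensin-like protein 5 (FtPinG0003898100.01) had 46.4 to 77.3 CPM at initial maturity, against 2.31 to 4.64 CPM at discoloration (log2 fold change 4.13 ± 0.53 SE, adjusted p = 7.5e-04). The defensin-like protein AX2 (FtPinG0006697700.01), a small antifungal peptide, had 1341, 2881 and 1444 CPM at initial maturity, against 245, 159 and 169 CPM at discoloration (log2 fold change 3.30 ± 0.73 SE, adjusted p = 0.008). A further defensin-like gene (FtPinG0008760900.01) had 6.82 to 13.8 CPM at initial maturity, against 57.9 to 105 CPM at discoloration (log2 fold change -2.91 ± 0.41 SE, adjusted p = 0.00111). Receptor kinases, the largest list, had 190 of 534 lower (35.6%) and 42 higher, with a median log2 change of -0.66. Cysteine-rich receptor-like kinase 10 (FtPinG0004770200.01) was the most abundant to rise on every criterion, with 36.3 to 40.8 CPM at initial maturity, against 12.8 to 19.9 CPM at discoloration (log2 fold change 1.31 ± 0.19 SE, adjusted p = 0.00125). Receptor-like kinase At5g39030 (FtPinG0000079100.01) was the most abundant to fall, with 18.4 to 22 CPM at initial maturity, against 56.4 to 64.9 CPM at discoloration (log2 fold change -1.53 ± 0.14 SE, adjusted p = 2.2e-04). Calcium sensors and kinases had 32 of 146 lower (21.9%) and 24 higher (16.4%), close to the shares of all tested genes. Among them was the CBL-interacting kinase 23 (FtPinG0006744200.01), which in Arabidopsis regulates potassium and nitrate uptake, with 132 to 152 CPM at initial maturity, against 44.1 to 59.1 CPM at discoloration (log2 fold change 1.54 ± 0.26 SE, adjusted p = 0.00237). Library totals alone gave gains and losses of 20 and 246 for receptor kinases and 10 and 52 for calcium sensors and kinases. The fewest gains over the fits that leave out 1 library were 24 for receptor kinases and 11 for calcium sensors and kinases, and the fewest losses were 14 for defence genes and 21 for calcium sensors and kinases. With the similar libraries merged, thaumatin-like protein 1, defensin-like protein 5, the lower defensin-like gene and At5g39030 kept their calls and the other 4 called genes named here did not pass (adjusted p = 0.0575 to 0.0796). A call did not hold without the pair of libraries that stood apart for AX2 (adjusted p = 0.0535).

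Vascular and floral markers were a small share of the RNA at both stages. Vascular markers had 2 of 16 higher and 4 lower, 2 and 2 without the libraries that stood apart, and took 0.00693%, 0.00736% and 0.00672% of the counts at initial maturity and 0.00594%, 0.00554% and 0.00537% at discoloration. Flower and pollen markers had 2 of 11 higher and 1 lower, 1 and 3 with library totals alone, and took 0.0181%, 0.0149% and 0.0178% of the counts at initial maturity and 0.0166%, 0.0198% and 0.0194% at discoloration. Their part in the results was not tested. Genes of families in common use as references had 9 of 48 higher and 9 lower (18.8% each), 5 and 17 with library totals alone. Polyubiquitin 10 (FtPinG0002072400.01) had 1344 to 1747 CPM at initial maturity, against 546 to 602 CPM at discoloration (log2 fold change 1.35 ± 0.32 SE, adjusted p = 0.0107). Actin-7 (FtPinG0005405200.01) had 24.1 to 32.6 CPM at initial maturity, against 55.1 to 69.5 CPM at discoloration (log2 fold change -1.03 ± 0.31 SE, adjusted p = 0.0276), a call that the further criteria did not keep. In the authors' deposited table, 3008 genes were higher and 4264 lower at initial maturity at an adjusted p under 0.05, and 6369 of these were also called here. With library totals alone, gains and losses numbered 2 and 7 for vascular markers. Without the libraries that stood apart, gains and losses numbered 4 and 6 for reference families. The fewest gains without 1 library were 5 for reference families, and the fewest losses were 3 for reference families. Merging the similar libraries ended both calls named here (adjusted p = 0.138 to 0.147). Calls were also lost without the pair of libraries that stood apart for polyubiquitin 10 (adjusted p = 0.0603) and actin-7 (adjusted p = 0.184).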

How the data were processed

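RNA of 9 seed libraries, 3 for each of 3 stages, was prepared with Trizol and an Illumina TruSeq RNA kit, per the labels' protocols. The kit does not mark strand, so overlapping and antisense genes cannot be told apart. Bowtie2 2.0.6 and TopHat2 2.0.12 are named in the submitters' processing notes. The counting program, genome build and annotation release are not named in the labels or file headers. Raw read counts per gene were deposited by the authors for 31839 gene models and 2092 genes that they added, and FPKM values (fragments scaled by gene length and library total) were deposited by the authors beside them. The authors' deposited gene table also holds, per the file headers, the signal of each stage (a mean scaled count), and the p-value and adjusted p-value of their own comparison, whose test is not named. Positions and Swiss-Prot names (23451 models) are those of this table, and positions are given without a build.

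Counts were tested with edgeR 4.0.16 in R 4.3.3 (TMM scaling, filterByExpr with a minimum count of 10, glmQLFit and glmQLFTest) in 1 fit of all 9 libraries, with the contrast initial maturity minus discoloration and Benjamini-Hochberg adjustment over 23631 genes. The filter removed 10300 genes. The SE restates the test (log2 fold change over the root of F). The script was tested on simulated counts. CPM are TMM-scaled, so they do not sum to a fixed total, and shares of counts are unscaled. Total counts per library, given with the results, set the precision, and 3 counts per library were the floor for genes at 0.

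The 63 lists are text patterns on Swiss-Prot names. The comparison, lists and tests were chosen with earlier results of these data known, and some patterns were corrected from the names in the files. A gene qualified for naming if it passed in the fit of all libraries and in the 6 fits that leave out 1 library of the comparison, with the same sign and ranges that did not overlap. Named are the 8 largest gains and 8 largest losses (log2 fold change) among those with a Swiss-Prot match and at least 20 CPM in the higher stage, the most abundant higher and lower member of lists, the 10 most counted genes at initial maturity, and the 5 with the highest CPM among genes with no count at the other stage. Not every list member so picked is described in the results. Alternatives were DESeq2 1.42.0 and its size factors, library totals alone, other filters, the 6 libraries only, a replicate term, each library left out, the libraries that stood apart left out, similar libraries merged, and a test against a log2 change of at most 1. Genotype calls were not used here.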

Additional observations from a re-analysis of the deposited data

How the results depend on the processing

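The 3776 higher and 4832 lower genes became 1886 and 7193 with library totals alone, 482 and 1181 with the similar libraries merged, and 540 and 1652 when tested against a log2 change of at most 1. Leaving out 1 library at a time gave 1993 to 5751 higher and 3315 to 6439 lower genes, the lowest without discoloration library 3 or 2 (2013 higher without library 2) and the highest without green fruit library 1. Under DESeq2's size factors, no filter, a filter of CPM above 1 in 3 libraries, the 6 libraries only, and the DESeq2 test, counts stayed within 1.5 times of these, from 3323 to 4914 higher and 4636 to 5307 lower. Merging leaves 2 libraries a stage. The cause of these shifts, that under merging included, was not tested.

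The sign of uncalled genes turned with library totals alone for FtPinG0000917200.01 (-0.14), FtPinG0002626600.01 (-0.10), FtPinG0004859600.01 (-0.14) and FtPinG0000917700.01 (-0.032), and with merged libraries for FtPinG0004859600.01 (-0.023). The labels do not say whether replicate numbers pair the stages. Deviations of same-numbered libraries correlated at 0.129, 0.096 and -0.074 (libraries 1, 2 and 3 of discoloration and initial maturity), and not every library was closest to its own number. Since 1 library stood apart in each stage, these correlations cannot decide whether the stages are paired. With a replicate block, 3405 genes were higher and 4443 lower. Of 269 results on named genes and lists, 259 kept their direction and side of the threshold or their count within 1.5 times with that block, 201 with library totals alone, 222 without the libraries that stood apart and 79 with similar libraries merged.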
